A study of Arabidopsis thaliana with 6 samples.

Results

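The 10 genes described here act upstream of CONSTANS (CO), the transcription factor through which day length controls flowering in Arabidopsis thaliana. They are the FLOWERING BHLH genes FBH1, FBH2, FBH3 and FBH4, the CYCLING DOF FACTOR genes CDF1, CDF2, CDF3 and CDF5, and GI (GIGANTEA) and FKF1. They were chosen by gene identifier and not by a threshold on their values, though with earlier results of these data known. All 10 were found among the 34262 genes listed and the 23540 tested. Col-0 seedlings of 3 genotypes were compared by RNA sequencing, with 2 libraries each: the mutant jmj28, the line JMJ28np5-OE, and wild type (WT). All plants were 14 days old, and long days and 22 °C were used throughout. JMJ28 encodes a JmjC-domain histone demethylase, and OE was read as overexpression because the JMJ28 transcript itself was raised. The sources used here do not name the jmj28 allele, the promoter that drives the transgene, the number of independent lines or the hour of harvest.

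In long days CO transcript is built up late in the light period. FBH proteins are basic helix-loop-helix factors that bind E-box motifs at the CO promoter and activate it. CDF proteins are DOF-type factors that repress CO and FT earlier in the day. GI, a large clock-controlled protein, and FKF1, a blue-light receptor with an F-box, form a complex in the afternoon that marks CDF proteins for destruction and so lifts the repression. JMJ28 is known to associate with FBH factors at CO, and the question here is whether the transcripts of the regulators themselves differed with JMJ28 genotype.

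The levels are RPKM, reads scaled by exon length and by the total of the library. The deposited tables give genotype means, from which the whole reads of both libraries were recovered for the 2 genotypes with the higher means of each gene. The mean of the remaining genotype was estimated from the deposited fold changes, and its spread is not known. Library totals were 13549528 and 11791666 reads in jmj28, 12380403 and 10632893 in JMJ28np5-OE, and 19693228 and 14309520 in WT, and pairs of library values below give the deeper library first. Recovered reads of the 10 genes ran from 17 to 1645 per library. JMJ28 itself had an estimated mean of 3.19 RPKM in jmj28, and library values of 244 and 307 RPKM in JMJ28np5-OE, while WT had 6.90 and 6.50 RPKM. The leaf markers CAB3, RBCS1A, LHCB2.2 and LHCB3 summed to 11802 RPKM in jmj28, 12716 RPKM in JMJ28np5-OE and 11900 RPKM in WT, and the seed markers CRA1 and OLEO1 summed to under 1 RPKM in every genotype. CO and FT, the outputs of these regulators, could not be used, because their deposited statistics equal those of other genes. In RNA of seedlings, fewer cells of a type and less RNA per cell cannot be told apart.

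None of the 10 regulators passed an FDR of 0.05 in any of the 3 comparisons of the authors' deposited tables. In jmj28 against WT that is 0 of 10, where 1.3% of all tested genes passed. In JMJ28np5-OE against WT it is 0 of 10 with 3.55% of all tested genes past the threshold, and in jmj28 against JMJ28np5-OE it is 0 of 10 with 11.4%. At an unadjusted p under 0.05 the tables hold 1 member in jmj28 against WT (FBH3), 1 in JMJ28np5-OE against WT (GI) and 4 in jmj28 against JMJ28np5-OE (FBH1, FBH4, GI and FKF1). The shares of all tested genes under that p were 8.58%, 14.2% and 24.3% in the same order of comparisons. The deposited FDR counts all 34262 listed genes, also those without reads. Adjustment of the deposited p-values by the Benjamini-Hochberg method over the 23540 tested genes alone left 0 of 10 members past the threshold in jmj28 against WT (1.47% of all tested genes) and 0 of 10 in JMJ28np5-OE against WT (4.15%). In jmj28 against JMJ28np5-OE, 2 of 10 members then passed, beside 13.1% of all tested genes. These were FKF1, with a Benjamini-Hochberg adjusted p of 0.0369 from the deposited p-values, and FBH4, with 0.0451.

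The sizes of the differences were close to those of other genes of like level. The median size of the log2 fold change over the members was 0.15 in jmj28 against WT, 0.12 in JMJ28np5-OE against WT and 0.21 in jmj28 against JMJ28np5-OE in the authors' deposited tables. Over the 15571 tested genes within the level range of the members it was 0.12, 0.15 and 0.21. The signed medians of the members were -0.01, 0.06 and -0.16, beside -0.00, 0.00 and -0.02 over all tested genes. A standard error was obtained for each log2 fold change from its deposited two-sided p-value, and 95% intervals were built from it. For jmj28 against WT the interval stayed under a 1.5-fold difference in either direction for 9 of the 10 members, CDF5 being the exception. In JMJ28np5-OE against WT it did so for 8 of 10, with CDF1 and CDF5 reaching further, and in jmj28 against JMJ28np5-OE for 7 of 10, with FBH1 (up to 1.55-fold), FBH4 (1.71-fold) and CDF5 (2.40-fold) reaching further. The comparisons share genotypes, so their values are not independent of each other.

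**Figure D1:**
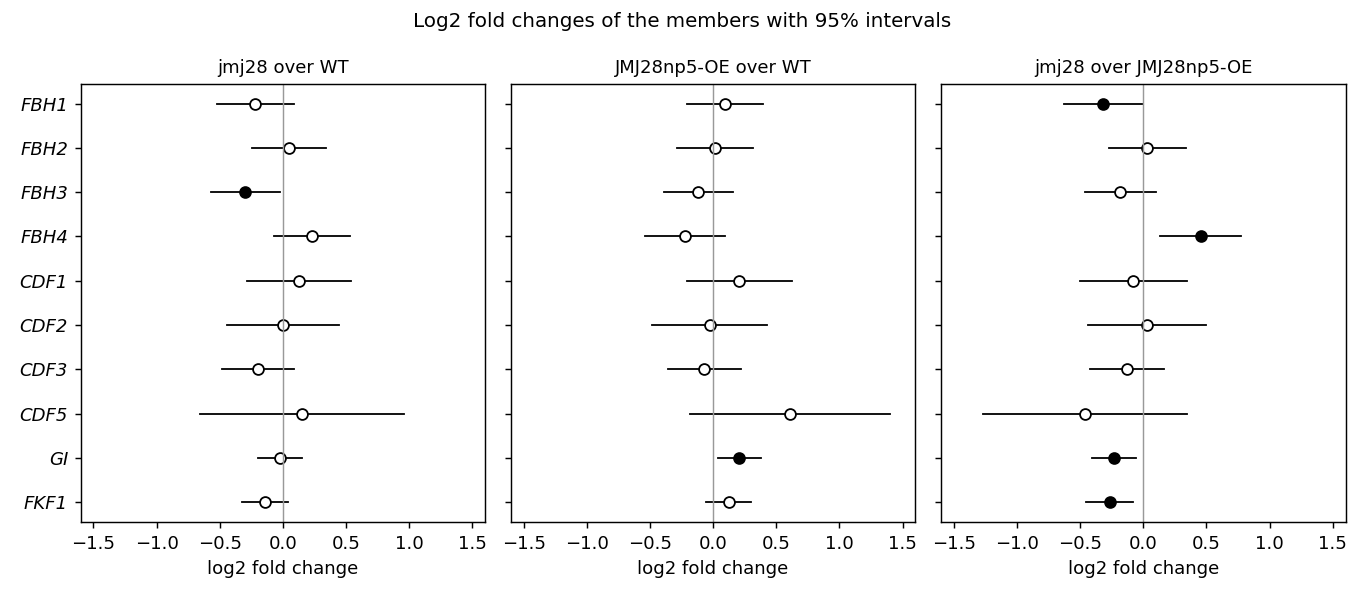
Deposited log2 fold change of each regulator (x axis) in jmj28 over WT, JMJ28np5-OE over WT and jmj28 over JMJ28np5-OE, with 95% intervals derived from the deposited p-values; filled points have an unadjusted p under 0.05. The intervals of GI and FKF1 are the narrowest and those of CDF5 the widest, and FBH4 lies to the right of 0 in both comparisons that have jmj28 on top.

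The levels spanned more than an order of magnitude. In WT the order was FKF1 (35.7 RPKM), GI (26.9 RPKM, estimated), FBH3 (22.1 RPKM), FBH2 (14.8 RPKM), CDF3 (12.9 RPKM), FBH1 (9.32 RPKM), FBH4 (7.41 RPKM), CDF1 (4.68 RPKM, estimated), CDF2 (2.46 RPKM) and CDF5 (0.813 RPKM, estimated). From FBH3 down to FBH4, both WT libraries of each gene lay above both libraries of the next. For pairs that include an estimated mean the spread is not known. By RPKM mean, the lowest genotype was jmj28 for FBH1, FBH3, CDF3 and FKF1, JMJ28np5-OE for FBH2, FBH4 and CDF2, and WT for CDF1, CDF5 and GI. This order turned with the scaling for GI and FBH2, since the authors' deposited tables put GI lowest in jmj28 and FBH2 lowest in WT. The highest mean was found in JMJ28np5-OE for 5 members, in jmj28 for 3 and in WT for 2. In WT, all 7 members with recovered libraries were lower in the deeper library, by log2 ratios from -0.23 to -0.0050, while the median over all genes above 5 RPKM was -0.02.

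**Figure D2:**
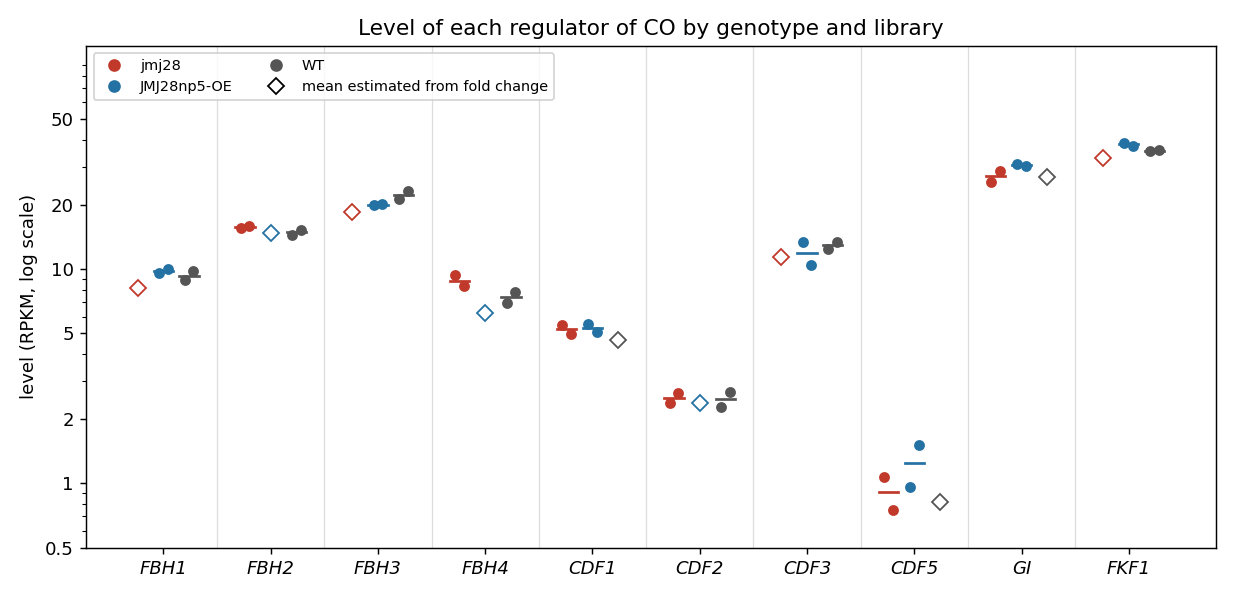
RPKM (log axis) of the 10 regulators in jmj28 (red), JMJ28np5-OE (blue) and WT (grey), with filled points for single libraries, bars for their mean and open diamonds for means estimated from the deposited fold changes. FKF1 and GI have the highest levels and CDF5 the lowest, and within each gene the genotypes lie close together compared with the distance between genes.

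The FBH genes are the activators of CO in this set. FBH1 (AT1G35460, chromosome 1, 13039660 to 13042159, TAIR10) and FBH2 (AT4G09180, chromosome 4, 5847312 to 5849763) lie on the forward strand. FBH3 (AT1G51140, chromosome 1, 18943447 to 18945812) and FBH4 (AT2G42280, chromosome 2, 17611185 to 17613660) lie on the reverse strand. FBH3 and FBH4 are also known as AKS1 and AKS3, substrates of an abscisic acid-responsive kinase in guard cells. No exonic stretch of 50 bases was shared between any of the 10 members, so exact matches of that length cannot be exchanged among them.

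FBH1 had an estimated mean of 8.18 RPKM in jmj28, 9.53 and 10.004 RPKM in the JMJ28np5-OE libraries, and 8.89 and 9.76 RPKM in the WT libraries. The JMJ28np5-OE and WT libraries overlapped, and the estimated jmj28 mean was below all 4 of them. For every member the estimated mean is the lowest, since only the higher means were recovered, and its spread is not known. The authors' deposited table gives FBH1 a log2 fold change of -0.32 in jmj28 against JMJ28np5-OE (standard error 0.16, FDR 0.295). FBH3 had an estimated mean of 18.4 RPKM in jmj28, 19.9 and 20.04 RPKM in the JMJ28np5-OE libraries, and 21.1 and 23.0 RPKM in the WT libraries. Both JMJ28np5-OE libraries of FBH3 lay below both WT libraries. Among the members with both genotypes recovered in that comparison, 2 of 4 had libraries that did not overlap, where 38.7% of all genes so recovered did not. For FBH3 the authors' deposited table gives -0.30 in jmj28 against WT, with a standard error of 0.14, an unadjusted p of 0.0314 and an FDR of 0.698.

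FBH4, unlike FBH1 and FBH3, had its highest mean in jmj28. It was at 9.35 and 8.29 RPKM in jmj28 and at an estimated mean of 6.22 RPKM in JMJ28np5-OE, and at 6.97 and 7.84 RPKM in the WT libraries. In RPKM both jmj28 libraries exceeded both WT libraries, as also for FBH2. Thus 2 of 3 members with both genotypes recovered did not overlap in jmj28 against WT, beside 42.5% of all genes so recovered. With median-of-ratios scaling the log2 ratio in this comparison was 0.18 for FBH4 and 0.01 for FBH2. The log2 fold change of FBH4 in jmj28 against JMJ28np5-OE was 0.45 in the authors' deposited table, with an interval from 0.13 to 0.78, an unadjusted p of 0.00567 and an FDR of 0.0656. For FBH4 the log2 ratio of RPKM means was 0.51 with both jmj28 libraries, 0.41 with the deeper left out and 0.59 with the shallower left out. Its JMJ28np5-OE mean was estimated from the deposited fold changes, so this ratio is no second estimate. No JMJ28np5-OE library of FBH4 could be left out. The last 149 bases of the FBH4 locus overlap AT2G42270 (BRR2B) on the opposite strand, and the library kit does not mark strand. In JMJ28np5-OE against WT, BRR2B rose by 0.58 on the log2 scale (FDR 0.0206) in the authors' deposited table, whereas FBH4 had -0.22 (FDR 0.880). The assignment of reads from the stretch shared with BRR2B could not be checked. A long non-coding RNA gene, AT2G09350, covers 681 bases of the FBH4 locus on the opposite strand. Its highest genotype mean was 0 RPKM.

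FBH2 was the most even of the activators. It was at 15.5 and 15.9 RPKM in jmj28 and at an estimated mean of 14.8 RPKM in JMJ28np5-OE, and at 14.5 and 15.2 RPKM in the WT libraries. Its log2 fold changes were 0.05 in jmj28 against WT, 0.02 in JMJ28np5-OE against WT and 0.03 in jmj28 against JMJ28np5-OE in the authors' deposited tables. The intervals reached at most 1.27-fold. The 4 FBH genes thus split in sign in every comparison, with 2 above 0 and 2 below in jmj28 against WT. AKS2 (AT1G05805), a relative of FBH3 and FBH4 outside the members, had an estimated mean of 19.7 RPKM in jmj28, 23.6 and 23.9 RPKM in the JMJ28np5-OE libraries, and 20.4 and 21.1 RPKM in the WT libraries. AKS2 fell by 0.33 on the log2 scale in jmj28 against JMJ28np5-OE (FDR 0.0256) in the authors' deposited table, and did not pass against WT in either genotype. AT2G43140 (bHLH129), the other gene of that list, did not pass in any comparison.

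The repressors are CDF1 (AT5G62430, chromosome 5, 25069093 to 25071111, reverse strand), CDF2 (AT5G39660, chromosome 5, 15878698 to 15881537, forward strand), CDF3 (AT3G47500, chromosome 3, 17503883 to 17506124, reverse strand) and CDF5 (AT1G69570, chromosome 1, 26161528 to 26163715, reverse strand). CDF3 had the highest level of the 4, with an estimated mean of 11.4 RPKM in jmj28, 13.4 and 10.4 RPKM in JMJ28np5-OE, and 12.4 and 13.4 RPKM in WT. The JMJ28np5-OE libraries of CDF3 stood on either side of the WT libraries. The log2 fold change of CDF3 in jmj28 against WT was -0.20, with an interval from -0.49 to 0.09 in the authors' deposited table. For jmj28 against JMJ28np5-OE the authors' deposited table gives -0.13. Against the estimated jmj28 mean, the log2 ratio of RPKM means was -0.06 with both JMJ28np5-OE libraries and 0.13 without the deeper JMJ28np5-OE library. For JMJ28np5-OE against WT the authors' deposited table gives -0.07. The log2 ratio of RPKM means there was -0.11 with all libraries and -0.30 after the same omission. When the shallower library of JMJ28np5-OE was dropped instead, this ratio turned in sign, to 0.06. In jmj28 against JMJ28np5-OE that second omission gave -0.23, so the values of CDF3 moved in opposite directions with the library dropped.

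CDF1 had 5.49 and 4.996 RPKM in the jmj28 libraries, 5.55 and 5.08 RPKM in the JMJ28np5-OE libraries, and an estimated mean of 4.68 RPKM in WT. The ranges of jmj28 and JMJ28np5-OE overlapped, and in JMJ28np5-OE against WT the interval of CDF1 reached 1.54-fold. CDF2 was at 2.38 and 2.63 RPKM in jmj28 and at an estimated mean of 2.37 RPKM in JMJ28np5-OE, and at 2.27 and 2.66 RPKM in the WT libraries, with overlapping jmj28 and WT libraries. Between jmj28 and WT, CDF2 had a log2 fold change of 0.00069 with a standard error of 0.23 in the authors' deposited table, so a difference of up to 1.36-fold lies within its interval.

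CDF5 was the lowest and least precisely measured member. It was at 1.07 and 0.748 RPKM in jmj28 and at 0.964 and 1.51 RPKM in JMJ28np5-OE, against an estimated mean of 0.813 RPKM in WT. The JMJ28np5-OE values rest on 23 and 31 reads. The WT mean of CDF5 was itself estimated from the deposited fold changes. Against it, the log2 ratio of RPKM means of CDF5 was 0.61 with both JMJ28np5-OE libraries. It was 0.90 with the deeper left out and 0.25 with the shallower left out. Its log2 fold change of 0.61 in JMJ28np5-OE against WT was the largest of the members by size in that comparison, with an interval from -0.18 to 1.40 and an FDR of 0.795 in the authors' deposited table. A long non-coding RNA gene, AT1G69572, covers 1241 bases of the CDF5 locus on the opposite strand and is annotated in the reference as a natural antisense transcript. AT1G69572 had a highest genotype mean of 4.21 RPKM, above the 1.24 RPKM of CDF5 in JMJ28np5-OE, and without strand marking the reads of this pair cannot be told apart in the stretch they share. Its own log2 fold changes were 0.06 in jmj28 against WT and -0.17 in JMJ28np5-OE against WT, with an FDR near 1 in the authors' deposited tables (0.99996 in each). The other CDF-type genes, CDF4 (AT2G34140) and DOF1.5 (AT1G29160, also called COG1), lay below WT in both genotypes, and 0 of 2 passed in any comparison of the authors' deposited tables.

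GI and FKF1 were the most abundant of the regulators, and their intervals were the narrowest. GI (AT1G22770) occupies chromosome 1 from 8061751 to 8067790 and FKF1 (AT1G68050) from 25508639 to 25510907, both on the forward strand. The windows from 250 bases before to 50 bases after their annotated starts are shown because both genes are clock-controlled. A further reason was that both had unadjusted p-values under 0.05 in the same direction in jmj28 against JMJ28np5-OE. FBH1, whose window is not shown, shared that direction and threshold. Capitals mark matches to the evening element AAAATATCT, a motif of evening-phased genes, read on both strands. The sequence is that of the reference TAIR10.1, in which all 10 members have the deposited start, end and strand.
GI promoter, chr1:8061501-8061800, forward strand: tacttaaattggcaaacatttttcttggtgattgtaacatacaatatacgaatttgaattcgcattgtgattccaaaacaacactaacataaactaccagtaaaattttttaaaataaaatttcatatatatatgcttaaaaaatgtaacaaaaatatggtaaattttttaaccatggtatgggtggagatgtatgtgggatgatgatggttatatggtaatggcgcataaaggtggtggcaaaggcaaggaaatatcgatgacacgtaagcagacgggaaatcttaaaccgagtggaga
FKF1 promoter, chr1:25508389-25508688, forward strand: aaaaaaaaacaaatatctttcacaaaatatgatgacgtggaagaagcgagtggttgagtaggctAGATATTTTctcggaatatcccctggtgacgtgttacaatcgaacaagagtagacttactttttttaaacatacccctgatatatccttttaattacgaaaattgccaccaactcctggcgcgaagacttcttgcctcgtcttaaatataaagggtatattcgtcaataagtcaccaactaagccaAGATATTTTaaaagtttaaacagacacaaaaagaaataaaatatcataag

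The FKF1 window holds 2 evening elements, both read on the reverse strand. The first begins 186 bases before the annotated start and the second begins at the start itself. Of 27419 protein-coding genes, 2.82% have at least 1 evening element in the same window. The GI window holds none, nor a match to the CCA1-binding site AAAAATCT or to the G-box CACGTG, which are found in 7.88% and 7.67% of all windows. Among the other members, CDF5 has 1 match to the CCA1-binding site, FBH3 has 2 G-boxes, at 83 and 72 bases before the start, and CDF2 has 1 G-box. The E-box CANNTG, which includes the G-box, is found in 61.7% of all windows and in those of FBH2, FBH3, FBH4, CDF1 and CDF2. These matches describe letters in these windows and say nothing of binding.

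GI had 25.6 and 28.5 RPKM in the jmj28 libraries, 30.9 and 30.1 RPKM in the JMJ28np5-OE libraries, and an estimated mean of 26.9 RPKM in WT. Both JMJ28np5-OE libraries lay above both jmj28 libraries, 1 of 3 members so recovered, beside 32.2% of all genes. The log2 fold change of GI was 0.21 in JMJ28np5-OE against WT, with a standard error of 0.09, an unadjusted p of 0.0179 and an FDR of 0.292 in the authors' deposited table. Between jmj28 and JMJ28np5-OE it was -0.23, with an interval from -0.41 to -0.06 and an FDR of 0.0933 in the authors' deposited table. Another estimate of the same difference, the log2 ratio of RPKM means, was -0.17 with all libraries and -0.10 when the deeper jmj28 library was left out. For jmj28 against WT the authors' deposited table gives -0.02 for GI, with an interval from -0.20 to 0.15 that reaches no more than 1.15-fold.

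FKF1 had an estimated mean of 33.1 RPKM in jmj28, 38.7 and 37.7 RPKM in the JMJ28np5-OE libraries, and 35.6 and 35.7 RPKM in the WT libraries. In RPKM every JMJ28np5-OE value exceeded every WT value, and the libraries within each of these genotypes differed by at most 1.03-fold. FKF1 was thus 1 of the 2 of 4 members so recovered without overlap, beside 38.7% of all genes. The difference depended on the scaling. For JMJ28np5-OE against WT the log2 ratio of RPKM means was 0.10, and 0.02 with median-of-ratios scaling. The log2 fold change of FKF1 was -0.27 in jmj28 against JMJ28np5-OE, with an interval from -0.45 to -0.08, an unadjusted p of 0.00431 and an FDR of 0.0537 in the authors' deposited table. Its log2 ratio of RPKM means was -0.21 with both JMJ28np5-OE libraries, -0.19 with the deeper left out and -0.23 with the shallower left out. The jmj28 mean of FKF1 was estimated from the deposited fold changes, so this ratio is no second estimate. No jmj28 library of FKF1 could be left out. The authors' deposited tables give FKF1 a log2 fold change of -0.14 in jmj28 against WT, at an FDR of 0.99996, and of 0.12 in JMJ28np5-OE against WT, at 0.894. The last 21 bases of FKF1 overlap MAP70.1 (AT1G68060) on the opposite strand, which did not pass in any comparison.

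**Figure D3:**
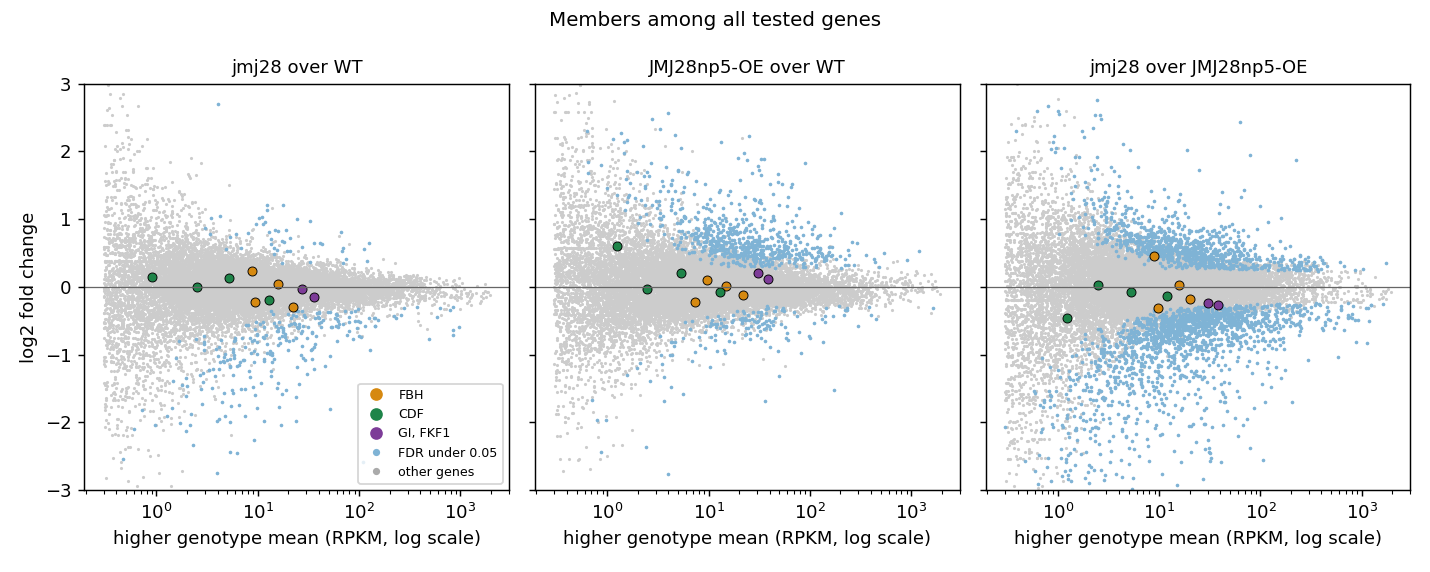
Deposited log2 fold change (y axis) against the higher genotype mean in RPKM (x axis, log scale) for all tested genes in the 3 comparisons, with genes past an FDR of 0.05 in blue and the members as large points. The members lie within the grey band of genes that did not pass in each panel, with FBH4 and FKF1 at its edge in jmj28 over JMJ28np5-OE. Genes beyond log2 fold changes of 3 in size, below 0.3 RPKM or above 2000 RPKM are not drawn.

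The wider pathway was read from 37 genes in 7 lists, of which 35 were used. None of the 35 passed in jmj28 against WT, 3 were higher and 1 lower in JMJ28np5-OE against WT, and 1 was higher and 5 were lower in jmj28 against JMJ28np5-OE at an FDR of 0.05 in the authors' deposited tables. Over all tested genes 1.3%, 3.55% and 11.4% passed in these comparisons, beside 0 of 35, 4 of 35 and 6 of 35 here. The lists were chosen with earlier results of these data known, so these shares are a description only and their difference was not tested. The median log2 fold changes of the 35 were -0.02, 0.05 and -0.13. Among the relatives of FKF1, ZTL was the gene past the threshold. ZTL (AT5G57360), the clock F-box protein of the same blue-light receptor family, had an estimated mean of 17.9 RPKM in jmj28, 26.8 and 27.7 RPKM in the JMJ28np5-OE libraries, and 19.9 and 20.5 RPKM in the WT libraries. The JMJ28np5-OE and WT ranges of ZTL were far apart. ZTL rose by 0.46 on the log2 scale in JMJ28np5-OE against WT (FDR 0.000289) and fell by 0.66 in jmj28 against JMJ28np5-OE (FDR 4.13e-09) in the authors' deposited tables. Its value in jmj28 against WT was -0.20 (FDR 0.751) in the authors' deposited table. The difference between the changes of ZTL and FKF1 was not tested. LKP2, the other family member, had -0.41 (FDR 0.0894) in jmj28 against JMJ28np5-OE in the authors' deposited table.

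The clock genes that act on GI, FKF1 and the CDF genes were at very unequal levels at the harvest. In WT the morning factors CCA1 and LHY had estimated means of 0.335 and 0.249 RPKM, while the evening gene TOC1 had an estimated mean of 73.0 RPKM. In jmj28, 5 of the 10 clock genes lay above WT and none passed, where 49.3% of all tested genes lay above WT. In JMJ28np5-OE, 9 of the 10 lay above WT and 1 passed, where 50.6% of all tested genes lay above WT. Of these 9, CCA1, LHY, RVE8 and PRR9 stayed under 1 RPKM in every genotype, and the difference between these counts was not tested. PRR7, a repressor of CDF genes, had 21.5 and 21.4 RPKM in the jmj28 libraries, 26.6 and 37.0 RPKM in the JMJ28np5-OE libraries, and an estimated mean of 20.8 RPKM in WT. PRR7 rose by 0.64 on the log2 scale in JMJ28np5-OE against WT (FDR 0.000157) and fell by 0.63 in jmj28 against JMJ28np5-OE (FDR 7.7e-05) in the authors' deposited tables. In these comparisons its log2 ratios of RPKM means were 0.61 and -0.57 with all recovered libraries, and 0.35 and -0.31 without the shallower JMJ28np5-OE library. The ratios against WT use the estimated WT mean. PRR5, of the same family, had an estimated mean of 24.6 RPKM in jmj28, against 31.4 and 37.1 RPKM in the JMJ28np5-OE libraries. It fell by 0.53 on the log2 scale between these genotypes (FDR 0.00279) in the authors' deposited table. The CDF genes that PRR proteins repress did not pass in any of these comparisons.

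Of the CO partners and other CO regulators, TCP4, a leaf transcription factor that activates CO, was the only one of 7 past the threshold. It was at 42.6 and 42.1 RPKM in jmj28 and at an estimated mean of 30.5 RPKM in JMJ28np5-OE, and at 39.5 and 37.5 RPKM in the WT libraries. TCP4 fell by 0.31 on the log2 scale in JMJ28np5-OE against WT (FDR 0.0334) and rose by 0.41 in jmj28 against JMJ28np5-OE (FDR 0.000355) in the authors' deposited tables. None of the 6 genes for CO protein stability (COP1, SPA1 to SPA4 and HOS1) and none of the phytochrome and cryptochrome genes PHYA, PHYB, CRY1 and CRY2 passed in any comparison. On the output side SOC1, a MADS-box floral integrator, had 22.4 and 24.1 RPKM in the jmj28 libraries, 29.3 and 31.4 RPKM in the JMJ28np5-OE libraries, and an estimated mean of 21.95 RPKM in WT. SOC1 rose by 0.49 on the log2 scale in JMJ28np5-OE against WT (FDR 0.000202) and fell by 0.44 in jmj28 against JMJ28np5-OE (FDR 0.000687) in the authors' deposited tables. TSF, the paralogue of FT, stayed under 1 RPKM in every recovered library.

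**Figure D4:**
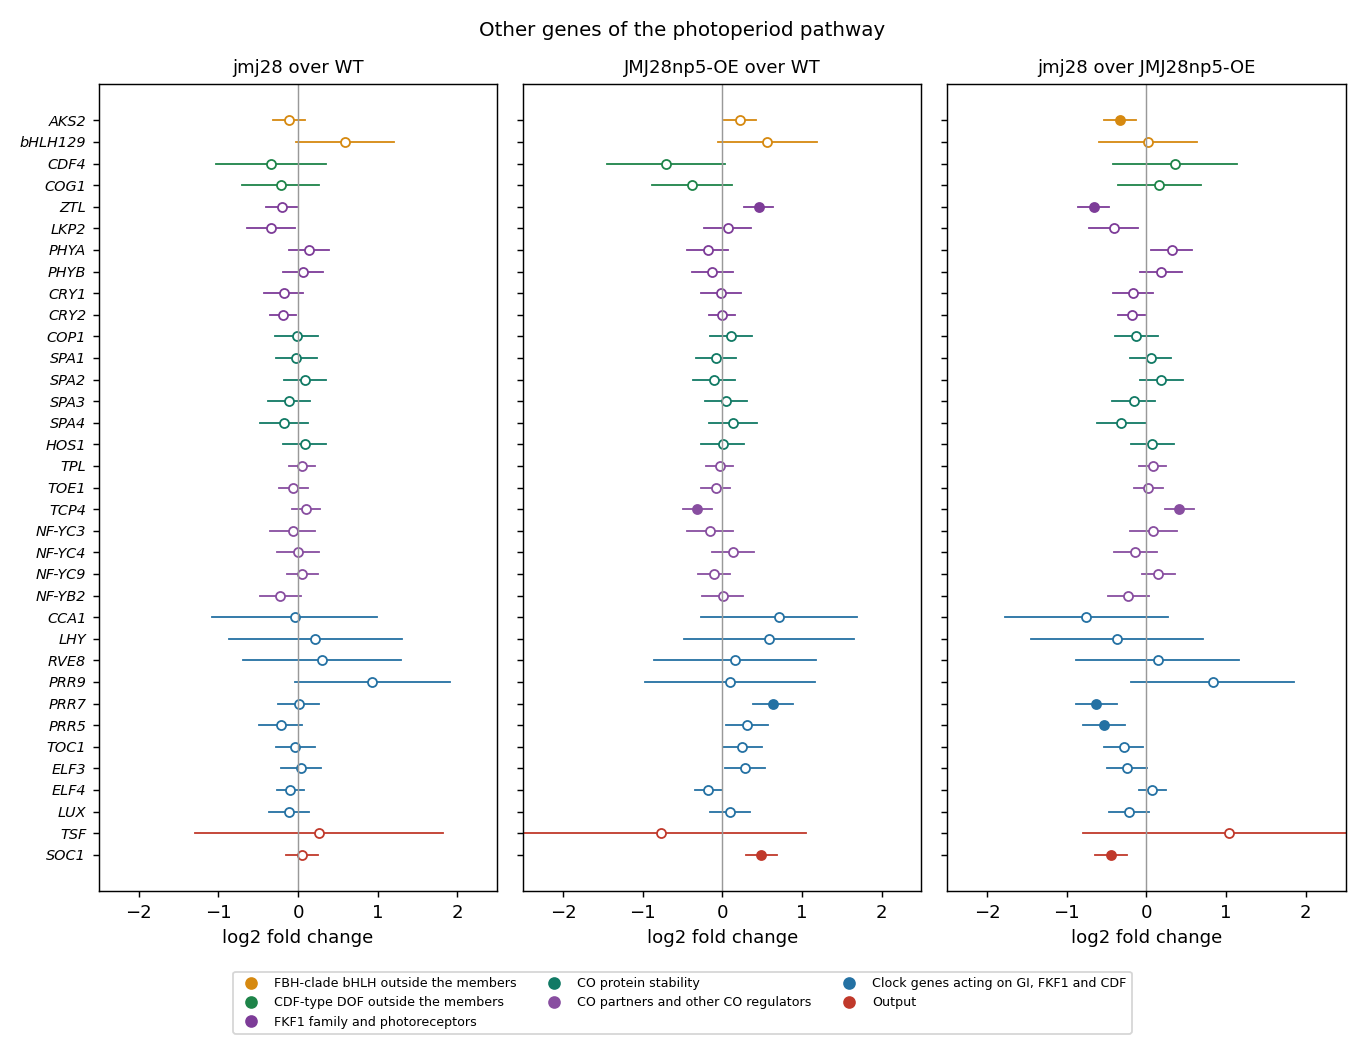
Deposited log2 fold changes (x axis) with 95% intervals for the 35 other genes of the photoperiod pathway, coloured by list, with filled points for an FDR under 0.05. No point is filled in jmj28 over WT, and ZTL, PRR7, SOC1 and TCP4 are filled in both other panels, with signs turned round between them; intervals are drawn only as far as 2.5.

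Root markers differed between genotypes in part. At an FDR under 0.05 in the authors' deposited tables, TIP2;3, AGP30 and IRT1, 3 of 4, rose in jmj28 against WT. PYK10 had a log2 fold change of 0.06 there (FDR 0.99996). In JMJ28np5-OE against WT, IRT1 alone rose past the threshold, with 2 of the 4 above WT and 2 below. PYK10, TIP2;3 and AGP30 rose in jmj28 against JMJ28np5-OE. Over all tested genes 1.3%, 3.55% and 11.4% passed in these comparisons. The 4 root markers summed to 1106 RPKM in jmj28, 878 RPKM in JMJ28np5-OE and 1006 RPKM in WT. Of these sums PYK10 made up 1038, 832 (estimated) and 973 RPKM. The leaf marker LHCB3, 1 of 4, rose in JMJ28np5-OE against WT and fell in jmj28 against JMJ28np5-OE. The flower markers AP3, PI and AG summed to 1.55 RPKM in jmj28, 3.57 RPKM in JMJ28np5-OE and 1.86 RPKM in WT, and AP3 and AG fell in jmj28 against JMJ28np5-OE. Both are near the floor. Their jmj28 means, 0.365 RPKM for AP3 and 0.0233 RPKM for AG, are estimates, and the highest genotype mean of AG was 0.557 RPKM. The companion cell markers SUC2 and AHA3, of the phloem cells in which CO acts, summed to 124 RPKM in jmj28, 115 RPKM in JMJ28np5-OE and 121 RPKM in WT, and 0 of 2 passed in any comparison. The guard cell markers KAT1, MYB60 and FAMA summed to 28.4 RPKM in jmj28, 31.2 RPKM in JMJ28np5-OE and 29.2 RPKM in WT, and 0 of 3 passed in any comparison. The part of these markers in the values of the 10 regulators was not tested.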

How the data were processed

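RNA of 6 seedling libraries was prepared with a TruSeq kit, per the labels, which does not mark strand. The authors used TAIR10, per the submitters' processing notes, which name no aligner, counter or test. The 3 deposited comparison tables hold, per the file headers, log2 fold changes, fold changes, p-values, an FDR and a Bonferroni p from the authors' fit, and the higher of both genotype means. Those deposited means are in RPKM, as shown by their whole-read steps once multiplied by reference exon length. The tables used hold no value per library, so the authors' FDR is the test of each comparison. The shorter deposited list names no member and was not used.

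The reads of both libraries were found as whole numbers fitting each mean to 1e-07 (Python 3.11.15, numpy 2.4.6, scipy 1.17.1). Of the means tried, 98.9% gave 1 solution and 6 gave several. On simulated data, with exon length and genotype given, 1200 of 1200 were recovered. The assignment of the second mean of a gene to its genotype was not simulated. The remaining means were estimated from the deposited log2 fold changes after removing the median offset from the log2 ratio of RPKM means (-0.03, 0.02 and -0.06 in the order of comparisons). Standard errors are the log2 fold change over the normal quantile of its p. They gave a positive variance for each genotype in 100% of 13706 genes above 5 RPKM. The 3 standard errors of a gene were close, with a median ratio of largest to smallest of 1.03. That outcome could therefore hardly fail and does not test the use of the normal quantile. With 2 libraries per genotype, p-values rest only on the spread between these samples, which may be technical. They need not follow the spread of the single gene. AHA3, at 57.1 and 33.4 RPKM in the JMJ28np5-OE libraries, had a standard error of 0.16 in JMJ28np5-OE against WT.

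The members and lists were chosen with earlier results of these data known. Named are all 10 members, JMJ28, marker genes, and list genes past FDR 0.05, at most 4 per list and comparison. AT1G69572, AT2G09350, BRR2B and MAP70.1 were added for their overlap. After their values were seen, bHLH129, CDF4, DOF1.5, LKP2, PHYA, PHYB, CRY1, CRY2, COP1, SPA1 to SPA4 and HOS1 were added. So were CCA1, LHY, RVE8, PRR9, TOC1 and TSF. CO and FT enter no count.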

Additional observations from a re-analysis of the deposited data

How the results depend on the processing

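The count of members past FDR 0.05 was 0 in all 3 comparisons with the deposited Bonferroni p and with the authors' short-list rule of an unadjusted p under 0.05 and at least 1.5-fold. It changed in jmj28 against JMJ28np5-OE alone, to 2 (FBH4 and FKF1) with Benjamini-Hochberg adjustment over the tested genes and to 2, the same genes, over the 18927 genes of at least 1 RPKM, because fewer genes enter the adjustment. Other estimates (ratios of RPKM means, 0.1 or 1 added, median-of-ratios scaling, centring) left 129 of 130 single values within 1 standard error, the exception being FKF1 in JMJ28np5-OE against WT, at 0.02 with median-of-ratios scaling, and turned the sign of 9. That scaling was possible only where both genotypes were recovered, for 3, 4 and 3 members in the order of comparisons. Elsewhere 1 mean was itself estimated from the deposited fold changes. The ratios there restate those fold changes apart from a median offset, and centring only shifts them by a constant. Such values lie near the deposited ones by construction and are no check of them. Leaving out 1 recovered library was set against the ratio of RPKM means with all recovered libraries. It left 76 of 80 ratios within 1 standard error and turned the sign of 10. The other 4 were those of CDF3 without either JMJ28np5-OE library. No library could be left out of a genotype whose mean was estimated. The library left out carries no replicate number, and the largest ratio was 1.86-fold, for CDF5. No paired analysis was possible because the deposited columns hold no single libraries and no replicate numbers. CDF5, with 17 to 31 reads in its recovered libraries, had the widest interval, and differences of 2-fold lie within it in both comparisons with JMJ28np5-OE.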

Other observations

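The deposited entries of CO and FT stand apart from all others. For 23540 of 23542 tested genes, the log2 fold changes of the 3 tables add up within 1e-06. The gap was 0.198 for CO and 0.244 for FT. In each table the log2 fold change and p-value of CO equal those of 1 other gene, AT1G33720 in jmj28 against WT, AT1G63350 in JMJ28np5-OE against WT and AT3G16070 in jmj28 against JMJ28np5-OE. For FT the genes are AT5G44260, AT4G14090 and AT2G04450. No member shares its log2 fold change and p-value with another gene in any table.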
